A study of Homo sapiens with 9 samples.

Results

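LNCaP cells given the androgen R1881 together with MEL-6 were compared with LNCaP cells given vehicle alone, by RNA sequencing. The comparison asks how much of the androgen response is left in the presence of MEL-6, and which genes stand away from the unstimulated level in other ways. Its members were chosen by their treatment labels. They are 6 of the 9 libraries of the study, 3 biological replicates of each of the 2 groups. The remaining 3 libraries come from cells given R1881 without MEL-6 and serve here for values set side by side. The LNCaP line, from a human prostate cancer, responds to androgen and secretes prostate-specific antigen. R1881 is a synthetic androgen that cells hardly degrade, and MEL-6 is named in the sources by that code alone. All cells were kept for 24 h without steroids in medium with 5% charcoal-stripped serum. They were then treated for 18 h with vehicle (DMSO), with 1 nM R1881, or with 1 nM R1881 and 10 µM MEL-6. No library used here holds MEL-6 without R1881, so a difference from vehicle cannot be assigned to the compound alone or to the pair of agents.

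Steroid hormones act through receptors that HSP90 and its helpers hold ready until the hormone binds, and that then bind DNA at pairs of a short sequence. In prostate cells androgen raises secreted proteases of the kallikrein family, regulators of secretion and lipid metabolism, and the co-chaperone FKBP5, while a smaller group of genes falls. The integrated stress response is a separate pathway, in which phosphorylation of a translation factor lets the transcription factor ATF4 be made, which raises amino acid transporters, synthetic enzymes and, when prolonged, the death-related factor DDIT3 (CHOP). Entry into S phase, by contrast, depends on E2F factors that drive the genes of the replication machinery.

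Values are the authors' RPKM, read numbers scaled to gene length and library size. Of 25142 entries in the table, 13295 (52.9%) had at least 0.5 RPKM in at least 3 of the 9 libraries and were tested. Differences are of log2(RPKM + 0.5), as R1881 with MEL-6 minus vehicle with its standard error, from limma across all tested genes. Group values with ± are the mean and SD over the 3 libraries of a group. A gene is called at a Benjamini-Hochberg adjusted p under 0.05, two-sided. The added 0.5 RPKM makes fold changes of low genes look smaller. The library totals and read numbers were not given, so no counting interval can be attached to a value. From the smallest steps between low values, the R1881 with MEL-6 libraries had 0.601 to 1.08 times the depth of vehicle replicate 1, and the vehicle libraries 0.651 to 1 times. R1881 with MEL-6 replicate 1 was the shallowest of the 9. The luminal keratin KRT8, an epithelial marker, was at 87.8 RPKM in vehicle, 495 with R1881 and 87.4 with both agents. KRT19, another luminal keratin, was far lower, at 0.346, 2.26 and 0.449 RPKM in the same order. The basal marker TP63 and the leukocyte markers PTPRC and CD3D were listed at 0 throughout, as were PECAM1 and CDH5 of endothelium and COL1A2 and PDGFRA of fibroblasts. Other fibroblast markers were detected at low level, and their values are given with the last results.

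With R1881 and MEL-6 together, 5051 genes (38% of those tested) were called against vehicle, 2290 (17.2%) higher and 2761 (20.8%) lower. Most differences were small: 178 genes (1.34% of those tested) were called and at least 2-fold higher and 138 (1.04%) at least 2-fold lower. The first count was 283 with 0.1 in place of 0.5 RPKM added before the log. The values of the 2 groups did not overlap for 46.5% of all genes. The median difference over all genes was -0.012. Upper-quartile scaling moved that median to 0.031 and the calls to 2769 higher and 2188 lower, so the balance between the directions depends on the scaling. Against the same vehicle libraries, R1881 alone gave 1930 genes higher (14.5%) and 4155 lower (31.3%), with 340 (2.56%) and 268 (2.02%) of all tested genes at least 2-fold. The 12 largest rises with both agents were DIO3, ANGPT2, HMOX1, NOS3, GPNMB, FAM129A, DDIT3, CYP1A1, RELN, TRIB3, GTPBP2 and GDF15. No kallikrein or other gene of the androgen-induced panel was among them. The 12 largest falls were RRM2, MCM10, DTL, FAM111B, MCM4, PCNAAS, GINS2, CDC45L, MCM2, ZNF367, EXO1 and ESCO2, which are for the most part genes of DNA replication and its repair.

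**Figure D1:**
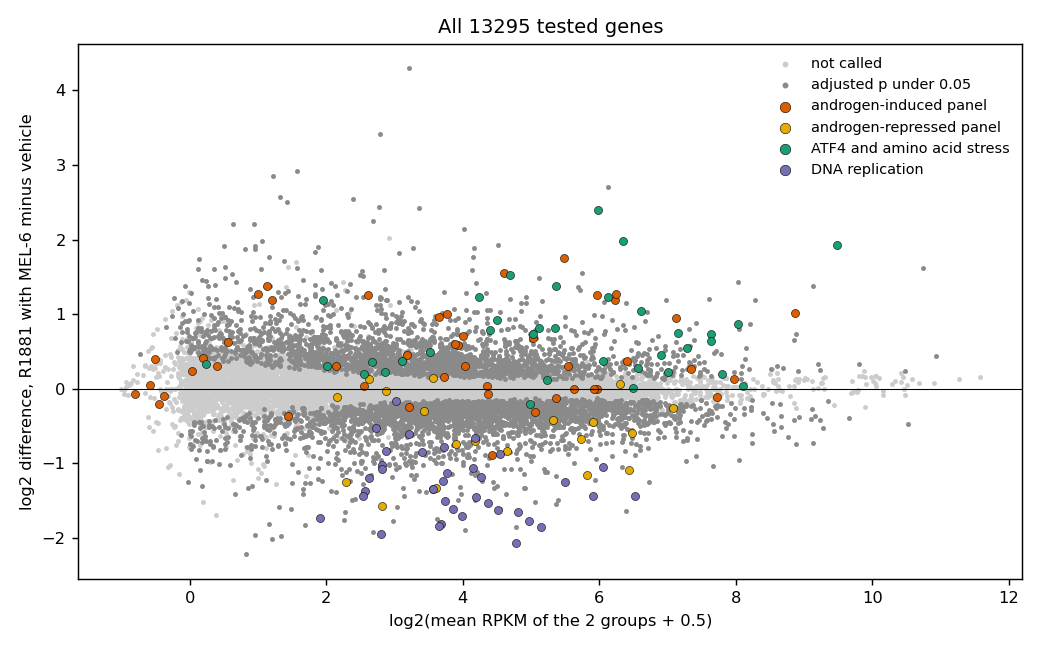
The log2 difference of each tested gene between R1881 with MEL-6 and vehicle (vertical axis) is plotted against its mean log2(RPKM + 0.5) (horizontal axis), with called genes in dark grey and 4 gene lists in colour. The androgen-induced panel spreads around a median of 0.31, the ATF4 list lies mostly above 0 and the DNA replication list below it.

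The androgen-induced panel holds 46 genes known to rise with androgen in prostate cells, and all were tested. Of these, 23 were higher than vehicle with R1881 and MEL-6, 4 were lower and 19 were not called, with a median difference of 0.31. Among the 19, ORM1, STEAP4, SGK1, NNMT and PART1 had means under the filter level in vehicle and with both agents. Only with R1881 alone were their means above it. The RPKM added before the log shrinks differences at such levels, so their lack of a call does not show an unchanged level. With R1881 alone, 43 of the 46 were higher and 1 was lower, with a median of 2.66. Between the treated groups themselves, 43 were lower with MEL-6 than without it (20.6% of all genes were), and none was called higher by limma, nor at an unadjusted p under 0.05. The first and second comparisons share the vehicle libraries, so their values are given side by side only. A longer list of androgen response genes, of which 100 were tested, had 42 higher and 9 lower than vehicle with both agents, with a median of 0.14. It shares members with the panel, among them KLK2, KLK3, TMPRSS2 and FKBP5, so its counts are not independent of those above. With R1881 alone, 85 of the 100 were higher and 3 lower. The counts of these and all later lists stand beside the shares over all tested genes. Those shares were 17.2% higher and 20.8% lower than vehicle with both agents, and 14.5% and 31.3% with R1881 alone.

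Several proteases of the panel were above vehicle with both agents. KLK3 encodes prostate-specific antigen and lies at chr19:51358171-51364020 (GRCh37). Its vehicle values were 328, 325 and 269.8 RPKM, its values with both agents 611, 624 and 623, and its values with R1881 alone 2153, 2268 and 2238. The libraries with MEL-6 lay close together, above every vehicle library and far below every library with R1881 alone. The difference from vehicle was 1.01 ± 0.076 log2 units (limma adjusted p = 4.98e-06). KLK2, which encodes the protease that activates prostate-specific antigen, was at 21.3, 21.9 and 16.7 RPKM in vehicle and 69.8, 69.3 and 65.4 with both agents, a difference of 1.76 ± 0.090 log2 units, against 324 ± 11.8 (SD, n = 3) with R1881. KLK4, a protease of the same cluster, was at 48.8, 43.1 and 44.2 RPKM in vehicle, 128, 136 and 139 with R1881 and 109, 101 and 102 with both. Of the 3 it stayed nearest to its R1881 level. TMPRSS2, a membrane serine protease whose promoter is often fused to ERG in prostate cancer, went from 36.3 ± 4.52 to 87.3 ± 5.28 RPKM (difference 1.26 ± 0.085 log2 units), with 529.7 ± 15.3 under R1881 alone.

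A stretch of the KLK3 promoter is shown because this gene had the highest residual level of the proteases, and one of TRPM8, an androgen-induced cation channel, because it kept a larger part of its rise. Both come from RefSeq promoters (GRCh38.p14), at chr19:50854705-50854790 on the plus strand and chr2:233979943-233980028 on the plus strand. Capitals mark the core sequence AGAACA of androgen response elements, which begins 170 and 166 bases before the annotated start.
KLK3: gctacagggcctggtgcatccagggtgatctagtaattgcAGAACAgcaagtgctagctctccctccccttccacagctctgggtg
TRPM8: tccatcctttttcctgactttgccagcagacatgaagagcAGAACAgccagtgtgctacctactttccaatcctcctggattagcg
On either strand, 12.4% of 35116 RefSeq promoters hold this core in the 250 bases before the start. Among the called higher members of the panel it was in 3 of the 18 with a promoter in the table, the third being PMEPA1. An exact match to a full androgen response element, AGAACA and TGTNCT separated by 3 bases, was in 0.037% of promoters and in none of the 18. Elements with a mismatch were not searched for. In the KLK3 stretch the core is followed after 3 bases by AGTGCT, which differs from TGTNCT in its first base only. The lack of an exact match thus does not show that KLK3 has only a core.

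Outside the proteases, other panel genes also stayed above vehicle. TRPM8 was at 0.76, 0.646 and 0.629 RPKM in vehicle and 2.43, 2.34 and 2.26 with both agents, a difference of 1.27 ± 0.089 log2 units (limma adjusted p = 3.1e-06). PMEPA1, an inhibitor of TGF-beta signalling, rose by 1.55 ± 0.050 log2 units and SLC45A3 (prostein) by 1.27 ± 0.12. NPPC, which encodes C-type natriuretic peptide, went from 0.727 to 2.68 RPKM, but reached 49.6 with R1881 alone. GNMT, a glycine methyltransferase, rose by 1.26 ± 0.094 log2 units and the prostaglandin-degrading enzyme HPGD by 1.20 ± 0.15. The transcription factor ZBTB16, among the genes most induced by steroid hormones in many tissues, rose by 0.96 ± 0.094 log2 units. SPDEF, an ETS factor of secretory epithelium, rose by 0.31 ± 0.094 log2 units with an adjusted p of 0.0256 by limma, a call that was lost without vehicle replicate 2 or 3 or MEL-6 replicate 2 or 3 (adjusted p up to 0.075).

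**Figure D2:**
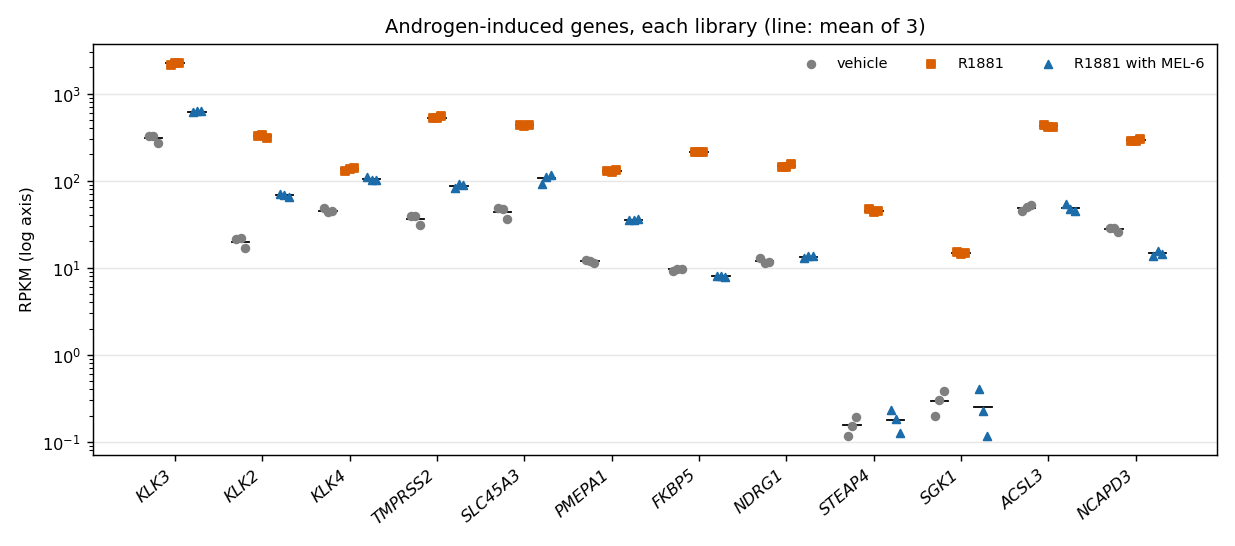
RPKM on a log scale (vertical axis) in each of the 9 libraries is shown for androgen-regulated genes (horizontal axis), with points for libraries and short lines for group means. KLK3 with both agents sat at 619 RPKM, between 308 in vehicle and 2219.7 with R1881, whereas FKBP5 sat at 7.99, below its vehicle mean of 9.53.

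Some of the strongest R1881-induced genes were at or below the vehicle level when MEL-6 was present. FKBP5, the co-chaperone that is a standard readout of androgen action, was at 9.17, 9.7 and 9.72 RPKM in vehicle, 214, 212 and 212 with R1881 and 8.11, 8.11 and 7.75 with both. Every library with MEL-6 was below every vehicle library, with a difference of -0.24 ± 0.047 log2 units (limma adjusted p = 0.00285). NCAPD3, a condensin subunit, was at 28.3, 28.2 and 25.9 RPKM in vehicle, 292 ± 5.44 (SD, n = 3) with R1881 and 13.7, 15.7 and 14.5 with both, and so fell by 0.89 on the log2 scale. CREB3L4, a membrane-bound transcription factor of secretory cells, differed by -0.32 ± 0.067 log2 units and the elongation factor partner EAF2 by -0.36 ± 0.12. The EAF2 call was lost under 7 of the 15 alternative settings, among them without vehicle replicate 2 or 3 or MEL-6 replicate 1 or 3 (limma adjusted p up to 0.0965).

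Other strongly induced genes were not called against vehicle. ACSL3, which activates long-chain fatty acids, was at 48.8 ± 3.63 RPKM in vehicle, 421 ± 10.7 with R1881 and 48.8 ± 4.36 with both, and its difference from vehicle had a 95% interval of -0.16 to 0.16. STEAP4, a metalloreductase, was at 0.154, 45.0 and 0.178 RPKM in the same order. The kinase SGK1 was at 0.292, 14.8 and 0.248 RPKM and the growth regulator NDRG1 at 12.04, 147 and 13.4. The 95% intervals of their differences from vehicle were -0.42 to 0.24 for SGK1 and 0.017 to 0.29 for NDRG1. STEAP4 and SGK1 had means under the filter level in vehicle and with both agents, and above it only with R1881 alone. At such levels the RPKM added before the log shrinks a difference, so the lack of a call cannot decide whether they differ from vehicle. With both agents they were far below their R1881 level. ELL2, another elongation factor, was at 5.29, 36.0 and 5.46 RPKM.

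For each panel gene that rose at least 2-fold with R1881, the part of the rise still present was computed from group means, as R1881 with MEL-6 minus vehicle over R1881 minus vehicle. It is a description with no test, since both parts use the vehicle mean. Over these 43 genes the median was 4.52%, with a range from -34.2% ± 21.4 (SE) for PART1 to 65.8% ± 3.76 for KLK4. The share was over 25% for 7 genes, from 10 to 25% for 10, and at or under 10% for 26, of which 10 were below 0. PART1, at 0.281, 0.576 and 0.18 RPKM in vehicle, with R1881 and with both, was not called against vehicle. Among the 7, KLK15 had 44.0% ± 21.6 and was not called against vehicle either. KLK3 kept 16.3% ± 0.909, KLK2 15.8% ± 0.736, PMEPA1 20.2% ± 0.613 and TMPRSS2 10.3% ± 0.8. TRPM8 kept 35.4% ± 1.37 and the ubiquitin ligase HERC3 26.7% ± 2.08. The share of FKBP5 was -0.76% ± 0.109 and that of STEAP4 0.0549% ± 0.0826. The median and counts above cover the panel only. Genes of the longer list outside the panel, also at least 2-fold higher with R1881, had a wider upper range. Their share ran from -6.35% ± 4.7 for DBI to 92.2% ± 11.3 for CDC14B.

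Genes that androgen lowers were for the most part still below vehicle. Of 21 such genes 20 were tested, of which 15 were lower than vehicle with both agents, none was higher (also 0 at an unadjusted p under 0.05 by limma) and 5 were not called, with a median difference of -0.63. With R1881 alone 19 were lower and the median was -2.52. Between the treated groups 16 were higher with MEL-6 (31.4% of all genes were) and 2 lower. The neuronal leucine-rich protein LRRN1 was at 114, 120.5 and 119 RPKM in vehicle, 7.99, 7.81 and 7.76 with R1881 and 56.0, 56.3 and 52.7 with both, an intermediate level whose difference from vehicle was -1.09 ± 0.047 log2 units. DDC, which makes dopamine and serotonin, differed by -1.15 ± 0.052 log2 units. The androgen-glucuronidating enzymes UGT2B15 and UGT2B17 differed by -1.57 ± 0.13 log2 units and -1.33 ± 0.081, but their near-identical sequences leave the split of reads between them uncertain. The opioid receptor OPRK1, at 5.41, 0.365 and 5.96 RPKM in vehicle, with R1881 and with both, and the p53-inducible TP53INP1, at 76.7, 25.3 and 80.2, were not called against vehicle. CCNE2 also belongs to the replication list below.

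Of 15 tested genes of steroid receptors, their cofactors and their chaperones, 7 were lower than vehicle with both agents and 8 were not called, with a median of -0.13. None was higher, with 1 higher at an unadjusted p under 0.05 by limma. With R1881 alone 11 were lower and 2 higher, with a median of -0.27. The members named next are chaperones that hold steroid receptors. HSP90AA1 differed by -0.75 ± 0.069 log2 units, HSP90AB1 by -0.40 ± 0.067, the p23 gene PTGES3 by -0.45 ± 0.080 and the co-chaperone FKBP4 by -0.46 ± 0.055. With R1881 alone the log2 differences from vehicle were -0.27, -0.19, -0.028 and -0.27 in that order, of which that of PTGES3 was not called. The pioneer factors FOXA1 and GATA2 were not called, at 202, 222 and 215 and 52.7, 24.6 and 56.3 RPKM. HOXB13, another luminal factor, differed by -0.24 ± 0.072 log2 units, a call lost without replicate 1 or 2 of either group (limma adjusted p up to 0.08).

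A broad rise was seen in genes of the integrated stress response. Of 35 tested targets and partners of ATF4, 28 were higher than vehicle with both agents and none was lower (1 at an unadjusted p under 0.05 by limma), with a median difference of 0.64. With R1881 alone, 5 were higher and 21 lower, with a median of -0.38. DDIT3, the death-related partner of ATF4, was at 20.5, 19.4 and 19.1 RPKM in vehicle, 14.9, 15.0 and 13.8 with R1881 and 103, 103 and 109.9 with both. Each library with MEL-6 was several times above each of the others, and the difference from vehicle was 2.39 ± 0.054 log2 units (limma adjusted p = 5.98e-09). ATF4 itself rose from 184 ± 7.9 to 338 ± 17.5 RPKM. The pseudokinase TRIB3, which restrains ATF4 and AKT, rose by 1.98 ± 0.062 log2 units and ATF3 by 1.52 ± 0.062, with R1881 alone at 28.02 RPKM for TRIB3 against 32.3 in vehicle, and at 14.1 against 12.8 for ATF3. PPP1R15A, the phosphatase subunit that ends the response, rose by 1.19 ± 0.15 log2 units. R1881 alone also raised some members over vehicle. The secreted factor GDF15 was at 296, 636 and 1126 RPKM in vehicle, with R1881 and with both, and the angiogenic factor VEGFA at 22.3, 43.4 and 59.2. Their differences between both agents and vehicle were 1.92 ± 0.10 log2 units and 1.38 ± 0.10, and both were also higher with MEL-6 than with R1881 alone (limma adjusted p = 8.95e-05 and 0.00379).

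Several genes of amino acid supply are in the same list. SLC7A11, which imports cystine, rose by 1.24 ± 0.056 log2 units and its heavy chain SLC3A2 by 1.04 ± 0.081. The glutathione-degrading enzyme CHAC1 rose by 0.78 ± 0.071 log2 units and the leucine sensor SESN2 by 0.92 ± 0.065. ASNS, which makes asparagine and is a classical ATF4 target, rose by only 0.22 ± 0.045 log2 units. PSAT1 of the serine pathway rose by 0.20 ± 0.048 log2 units, while PHGDH (difference 0.039) and PSPH (difference -0.21) were not called. Of 20 cytoplasmic tRNA synthetases, a group that ATF4 also controls in part, 9 were higher and 6 lower, with a median of 0.015. SARS rose by 0.99 ± 0.048, AARS by 0.80 ± 0.061 and WARS by 0.74 ± 0.047, while FARSB fell by 0.54 and VARS fell by 0.38 on the log2 scale.

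Promoter stretches of 3 called genes show the amino acid response element TGATGNAA, to which ATF4 dimers bind, in capitals. They are RefSeq sequences (GRCh38.p14) at chr7:97872429-97872516 on the minus strand, chr1:212565176-212565263 on the plus strand and chr15:40953222-40953309 on the plus strand, with the element on the opposite strand in CHAC1 and its 5′-most base 68, 191 and 209 bases before the start.
ASNS: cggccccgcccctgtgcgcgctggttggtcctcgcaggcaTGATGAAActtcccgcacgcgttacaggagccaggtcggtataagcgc
ATF3: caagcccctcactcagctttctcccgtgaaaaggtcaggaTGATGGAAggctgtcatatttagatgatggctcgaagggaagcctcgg
CHAC1: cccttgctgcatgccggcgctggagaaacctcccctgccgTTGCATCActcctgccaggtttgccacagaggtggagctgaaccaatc
The element was in 3.14% of all promoters and in 5 of the 23 called higher members with a promoter in the table, the others being CEBPG and SLC1A5. The 3 genes shown rose by different amounts, from 0.22 for ASNS to 1.52 for ATF3.

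**Figure D3:**
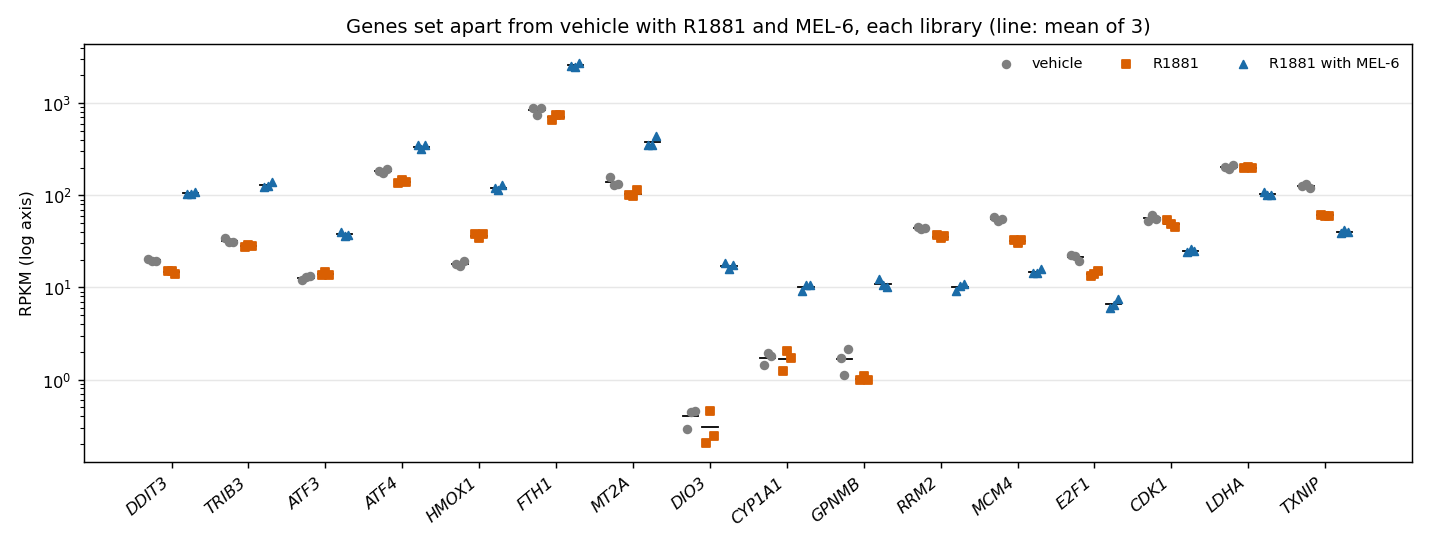
RPKM on a log scale (vertical axis) in each of the 9 libraries is shown for genes that differ from vehicle outside the androgen program (horizontal axis), with points for libraries and short lines for group means. The 3 libraries with MEL-6 lie apart from the other 6 for DDIT3, at 105 against 19.7 and 14.6 RPKM, and on the low side for RRM2.

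Of 20 tested targets of the oxidative stress factor NRF2, 13 were higher than vehicle and 2, PRDX1 and TXN, were lower, with a median of 0.43. SLC7A11 is counted in this list and in the ATF4 list. HMOX1, which breaks down heme, was at 18.1, 17.0 and 19.5 RPKM in vehicle, 37.6, 34.2 and 37.8 with R1881 and 121, 113 and 129 with both, a difference from vehicle of 2.71 ± 0.069 log2 units (limma adjusted p = 1.05e-08). The ferritin heavy chain FTH1 was among the most abundant transcripts to change, at 843 ± 80.2 RPKM in vehicle, 713 ± 50.1 with R1881 and 2585 ± 132 with both. It has many processed copies in the genome, which makes its count uncertain. The light chain FTL rose by 0.86 ± 0.092 log2 units. GCLM of glutathione synthesis rose by 0.67 ± 0.070 log2 units and the thioredoxin reductase TXNRD1 by 0.46 ± 0.048. NQO1, the target most often used as a readout of NRF2, was not called, at 148, 149 and 159.7 RPKM in vehicle, with R1881 and with both, and the peroxiredoxin PRDX1 fell by 0.65 on the log2 scale.

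Metallothioneins bind zinc and copper and are induced through the factor MTF1. Of 11 metallothionein genes 4 were tested, while 6 others were listed at 0 in every library. All 4 tested were higher than vehicle with both agents by limma. MT2A was at 159, 129.9 and 134 RPKM in vehicle, 101, 99.2 and 113 with R1881 and 351, 351 and 445 with both, a difference of 1.43 ± 0.11 log2 units (limma adjusted p = 4.58e-06). MT1X rose by 1.17 ± 0.11 log2 units, MT1F by 1.60 ± 0.19 and MT1G by 1.48 ± 0.14, though reads of these near-identical genes may be split between them. The zinc exporter SLC30A1, also an MTF1 target, and MTF1 itself were not called, with SLC30A1 at 9.29, 5.63 and 9.4 RPKM in vehicle, with R1881 and with both. Part of the MT2A promoter is shown (RefSeq, GRCh38.p14, chr16:56608391-56608491 on the plus strand), with 2 matches to the core of the metal response element, TGCGCNC, in capitals.
MT2A: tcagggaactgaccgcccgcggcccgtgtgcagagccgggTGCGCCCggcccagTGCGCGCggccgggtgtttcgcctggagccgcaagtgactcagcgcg
This short core is common, in 16.8% of all promoters, and both called metallothioneins with a promoter in the table, MT1X and MT2A, hold it.

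Of 5 tested targets of the aryl hydrocarbon receptor, a sensor of planar aromatic ligands, 3 were higher than vehicle, none was lower and 2 were not called (also 0 lower at an unadjusted p under 0.05 by limma). CYP1A1, its classical target, was at 1.44, 1.95 and 1.8 RPKM in vehicle, 1.25, 2.04 and 1.73 with R1881 and 9.09, 10.8 and 10.5 with both, a difference of 2.25 ± 0.14 log2 units (limma adjusted p = 1.65e-06). CYP1A2 rose by 0.89 ± 0.19 log2 units. Its level was near the filter of 0.5 RPKM, at 0.446, 0.0293 and 1.23 RPKM in vehicle, with R1881 and with both. The ADP-ribosylating enzyme TIPARP was at 3.12, 10.6 and 3.89 RPKM in vehicle, with R1881 and with both, highest with R1881 alone, and its call against vehicle was lost without vehicle replicate 1 or MEL-6 replicate 2 (limma adjusted p up to 0.0701). The receptor's own repressor AHRR, with 0.498, 0.427 and 0.476 RPKM, was not called.

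The largest single rise was outside all lists. DIO3, the deiodinase that inactivates thyroid hormone, was at 0.292, 0.448 and 0.459 RPKM in vehicle, 0.203, 0.459 and 0.247 with R1881 and 18.4, 15.8 and 17.3 with both. Vehicle and R1881 libraries were all under 1 RPKM, and the difference from vehicle was 4.30 ± 0.14 log2 units (limma adjusted p = 2.44e-08). NOS3, the endothelial nitric oxide synthase, rose from 1.04 to 8.48 RPKM, with 0.668 under R1881. ANGPT2, an angiopoietin that antagonises TIE2 signalling in endothelium, was at 0.674, 3.41 and 12.1 RPKM in vehicle, with R1881 and with both. GPNMB, a lysosomal and melanosomal glycoprotein, rose by 2.44 ± 0.16 log2 units and the secreted neuronal guidance protein RELN by 2.14 ± 0.094. FAM129A, a regulator of translation under stress, was at 2.75, 4.54 and 16.8 RPKM and the GTP-binding protein GTPBP2 at 9.01, 10.6 and 35.7. The endothelial markers PECAM1 and CDH5 were at 0 in every library, and VWF was not called.

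Genes of protein folding in the endoplasmic reticulum were in part raised. Of 22 tested, 12 were higher than vehicle and 1 was lower, with a median of 0.20, while with R1881 alone 21 were higher, with a median of 0.62. The co-chaperone DNAJB9 rose by 1.05 ± 0.089 log2 units, HERPUD1 of protein degradation by 0.97 ± 0.056, the ubiquitin ligase adaptor SEL1L by 0.68 ± 0.058 and the central chaperone HSPA5 (BiP) by 0.43 ± 0.048. In vehicle, with R1881 and with both, DNAJB9 was at 10.2, 31.2 and 21.7 RPKM and HSPA5 at 147, 234 and 199. These genes were highest with R1881 alone. HERPUD1, at 43.9, 76.0 and 86.7 RPKM, and SEL1L, at 28.7, 32.8 and 46.2, were highest with both agents. The protein disulfide isomerases PDIA3, PDIA4 and PDIA6 and the chaperone HSP90B1 were not called. HSP90B1 was at 447, 665 and 484 RPKM in vehicle, with R1881 and with both. The promoters of HSPA5 (chr9:125241351-125241449 on the minus strand) and XBP1 (chr22:28800570-28800661 on the minus strand) are shown (RefSeq, GRCh38.p14) because both genes rose and hold the full ER stress element, CCAAT and CCACG separated by 9 bases, in capitals.
HSPA5: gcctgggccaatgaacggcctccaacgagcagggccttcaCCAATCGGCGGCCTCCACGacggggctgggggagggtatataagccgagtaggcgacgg
XBP1: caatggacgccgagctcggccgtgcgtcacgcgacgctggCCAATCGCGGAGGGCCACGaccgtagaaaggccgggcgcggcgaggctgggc
That element was in 0.074% of all promoters and in 4 of the 12 called higher members, with CANX and CRELD2. XBP1, a transcription factor of the unfolded protein response, rose by 0.41 ± 0.041 log2 units. Of 26 genes of vesicle traffic, 5 were higher and 5 lower with both agents, a share close to that of all genes in either direction (17.2% and 20.8%), while 23 were higher with R1881 alone. The coat protein SEC24D had the largest rise of that list, of 0.92 ± 0.061 log2 units. It was at 9.23, 26.9 and 17.9 RPKM in vehicle, with R1881 and with both, so it was highest with R1881 alone.

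Among 25 tested p53 targets, 10 were higher and 2 lower than vehicle with both agents, with a median of 0.19, while 4 were higher and 17 lower with R1881 alone. The cyclin kinase inhibitor CDKN1A was at 51.8, 50.3 and 47.4 RPKM in vehicle, 39.2, 38.6 and 43.0 with R1881 and 93.4, 92.3 and 98.3 with both, a rise of 0.92 ± 0.057 log2 units. GADD45A rose by 1.03 ± 0.11 log2 units and the BH3-only death gene BBC3 (PUMA) by 1.12 ± 0.11. The p53 feedback gene MDM2, at 33.7, 25.6 and 33.0 RPKM, and the death effector BAX, at 25.6, 20.5 and 24.8, were not called. Of 14 tested members of the BCL2 family, 4 were higher and 3 lower, with a median of 0.011, against 17.2% and 20.8% of all genes. The survival gene MCL1 was among the lower, at 78.6, 65.5 and 64.6 RPKM in vehicle, with R1881 and with both. CDKN1A, SESN2, GDF15 and BBC3 are known to respond to other stresses besides p53. SESN2 and GDF15 are also counted in the ATF4 list, and BBC3 in the BCL2 family. Of 28 lysosome and autophagy genes, 15 were higher and 2 lower. The autophagy receptor SQSTM1 rose by 0.81 ± 0.062 log2 units, the autophagosome protein MAP1LC3B by 0.83 ± 0.085 and the sialidase NEU1 by 0.80 ± 0.054, while the master regulator TFEB was not called. Of insulin and IGF pathway genes, 9 of 20 were higher and 7 lower, against 17.2% and 20.8% of all genes. IGFBP3 rose by 1.23 ± 0.093 and IRS2 by 0.98 ± 0.12, and the glucose-induced TXNIP fell by 1.64 on the log2 scale.

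**Figure D4:**
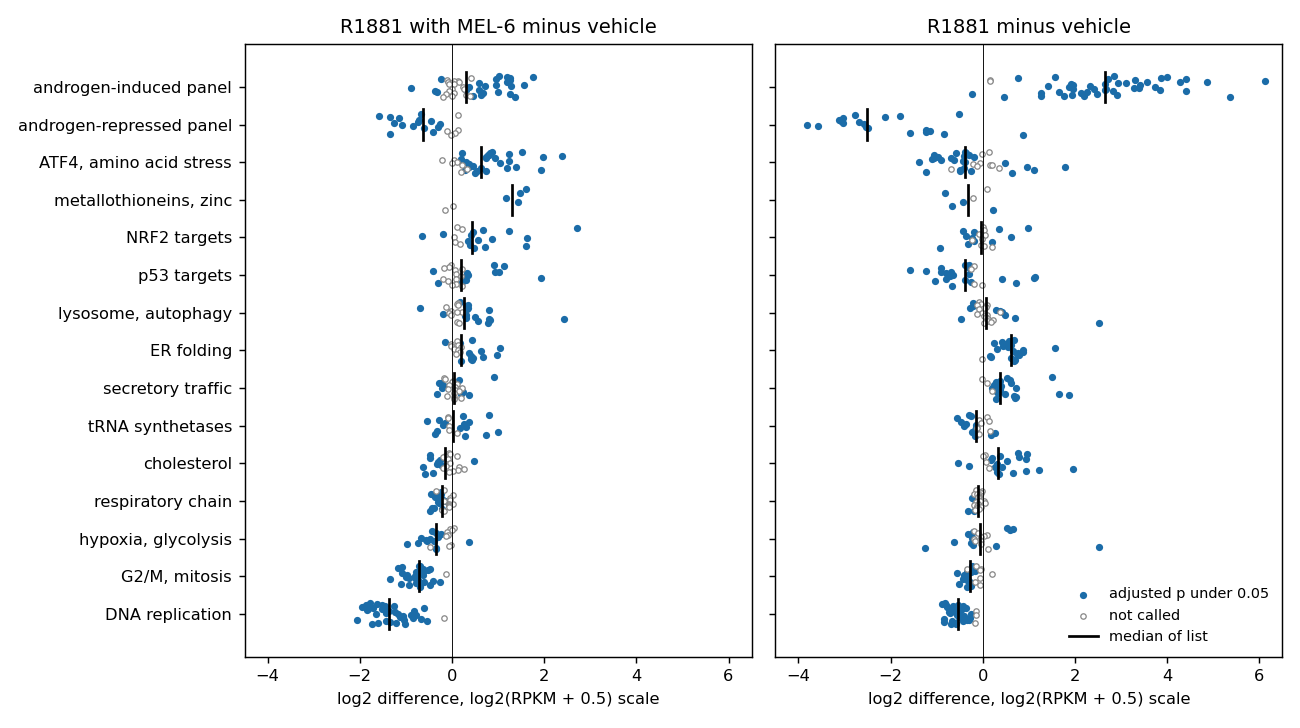
For each gene list (vertical axis), points give each tested member's log2 difference from vehicle (horizontal axis), with R1881 and MEL-6 on the left and R1881 alone on the right, filled where called, and a black line gives the median. On the left, the DNA replication list stands lowest at -1.36 and the ATF4 list has its median at 0.64, against -0.012 for all genes.

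DNA replication genes fell almost without exception. Of 36 tested, 35 were lower than vehicle with both agents and none was higher (also 0 at an unadjusted p under 0.05 by limma), with a median of -1.36. With R1881 alone 33 were lower, with a smaller median of -0.54. In bulk RNA, fewer cells in S phase and less RNA per cell cannot be told apart. RRM2, the regulated subunit of the enzyme that makes deoxynucleotides, was at 45.3, 42.6 and 44.0 RPKM in vehicle, 37.2, 34.0 and 35.8 with R1881 and 9.25, 10.4 and 10.8 with both. All libraries with MEL-6 were far below the rest, and the difference from vehicle was -2.07 ± 0.064 log2 units (limma adjusted p = 2.44e-08). The 6 subunits of the replicative helicase fell together, from -1.26 for MCM7 to -1.86 for MCM4. MCM2 was at 51.8, 50.03 and 42.3 RPKM in vehicle and 10.9, 14.9 and 15.8 with both. The helicase loader CDC6 differed by -1.71 ± 0.063 log2 units, the helicase activator CDC45 (CDC45L in the table) by -1.81 ± 0.064 and GINS2 by -1.84 ± 0.076. The sliding clamp PCNA was at 134 ± 7.11 RPKM in vehicle and 49.3 ± 2.87 with both. PCNAAS, a short antisense entry among the largest falls, overlaps that gene, and without stated strand use its reads and those of PCNA cannot be told apart. Thymidylate synthase (TYMS) differed by -1.43 ± 0.047 log2 units and the S-phase factor E2F1 by -1.61 ± 0.088. The catalytic subunit POLE alone was not called, at 8.12, 6.64 and 7.18 RPKM.

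Outside that list, DTL, which directs PCNA-coupled protein destruction, was at 9.68, 5.8 and 2.19 RPKM in vehicle, with R1881 and with both. FAM111B, a protease-like protein of proliferating cells, was at 25.4, 29.5 and 6.46 RPKM, the exonuclease EXO1 at 6.89, 3.61 and 1.69 and the cohesin acetyltransferase ESCO2 at 18.5, 12.2 and 5.15. All had their lowest mean with MEL-6.

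The E2F site TTTNGCGC is printed in capitals in promoter stretches of MCM6 (chr2:135876482-135876635 on the minus strand) and E2F1 (chr20:33686386-33686445 on the minus strand), both RefSeq (GRCh38.p14), because these genes fell strongly and carry the known element of S-phase control. The MCM6 stretch holds 4 matches on either strand, some of which overlap.
MCM6: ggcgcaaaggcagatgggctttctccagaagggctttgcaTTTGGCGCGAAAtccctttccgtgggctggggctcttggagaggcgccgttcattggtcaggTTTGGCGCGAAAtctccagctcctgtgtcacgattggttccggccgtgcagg
E2F1: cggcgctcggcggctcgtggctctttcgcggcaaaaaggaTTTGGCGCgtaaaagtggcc
The site was in 1.51% of all promoters and in 9 of the 31 called lower replication genes with a promoter in the table. MCM6 fell by 1.46 and E2F1 fell by 1.61 on the log2 scale.

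Genes of mitosis fell as well, by smaller amounts. Of 29 tested, 28 were lower with both agents and none was higher (also 0 at an unadjusted p under 0.05 by limma), with a median of -0.71. With R1881 alone 21 were lower, with a median of -0.28. CDK1, the kinase that starts mitosis, was at 52.97, 61.3 and 56.0 RPKM in vehicle, 53.5, 48.8 and 45.2 with R1881 and 24.0, 26.1 and 24.9 with both, a difference of -1.17 ± 0.074 log2 units (limma adjusted p = 1.57e-06). The kinetochore gene NDC80 differed by -1.34 ± 0.073 log2 units, the proliferation marker MKI67 by -0.98 ± 0.10 and the cyclin gene CCNB1 by -0.71 ± 0.067. The survivin gene BIRC5 was not called, at 0.711, 0.775 and 0.496 RPKM. The promoter of the mitotic kinase gene PLK1 (chr16:23678820-23678888 on the plus strand, RefSeq, GRCh38.p14) is shown with its cell cycle homology region TTTGAA, the known repressor element of such genes, in capitals.
PLK1: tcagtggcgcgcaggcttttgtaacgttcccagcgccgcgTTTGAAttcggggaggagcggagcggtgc
This short motif was in 13.3% of all promoters and in 12 of the 23 called lower mitotic genes with a promoter in the table.

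Central metabolism was lower in part. Of 23 tested genes of glycolysis and hypoxia, 13 were lower and 1 was higher, with a median of -0.34. LDHA, which makes lactate, was at 205, 195 and 211 RPKM in vehicle, 198, 201 and 196 with R1881 and 108, 101 and 101 with both, so that the level with MEL-6 lay well under both others (difference from vehicle -0.97 ± 0.050 log2 units). The pyruvate kinase gene, PKM2 in the table, differed by -0.73 ± 0.058 log2 units and TPI1 by -0.68 ± 0.074. The hypoxia-induced genes BNIP3 and PDK1 and the glucose transporter SLC2A1 were not called, with SLC2A1 at 20.2, 29.2 and 20.9 RPKM. Of 28 nuclear genes of oxidative phosphorylation, 15 were lower and none was higher (also 0 at an unadjusted p under 0.05 by limma), with a median of -0.22. The differences were small, for example -0.42 ± 0.086 log2 units for the ATP synthase gene ATP5B and -0.47 ± 0.062 for cytochrome c.

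Lipid synthesis genes, known targets of androgen in LNCaP cells, were seldom above vehicle with both agents. Of 24 tested cholesterol genes, 1 was higher and 9 lower with both agents, against 18 higher and 2 lower with R1881 alone. The sterol isomerase EBP differed by -0.63 ± 0.059 log2 units, the thiolase ACAT2 by -0.59 ± 0.073 and the farnesyl pyrophosphate synthase gene FDPS by -0.49 ± 0.074. Of 19 fatty acid genes, 4 were higher and 5 lower, near the shares of all genes. The desaturase FADS2 differed by -0.90 ± 0.10 log2 units and the elongase ELOVL6 by -0.83 ± 0.077, while ELOVL7 rose by 0.93 ± 0.10 and the lipid-sensing receptor PPARG by 0.96 ± 0.16. ELOVL7 was at 11.3, 87.8 and 21.9 RPKM in vehicle, with R1881 and with both, so it was highest with R1881 alone, and PPARG was at 1.97, 1.76 and 4.26. FASN was at 99.1, 278 and 89.8 RPKM and was not called against vehicle.

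Of 23 interferon and antigen presentation genes, 5 were higher and 5 lower, near the shares of all genes. B2M rose by 0.54 ± 0.059 and OAS3 fell by 1.49 on the log2 scale. B2M, also in the longer androgen list, was at 230, 690 and 335 RPKM in vehicle, with R1881 and with both. It was thus highest with R1881 alone. Of the markers of other cell types, 4 of 12 fibroblast genes were tested, of which 3 were higher and 1 lower than vehicle, with a median of 0.64. VIM was at 1.11, 0.756 and 0.578 RPKM in vehicle and 2.45, 1.55 and 2.16 with both, and ACTA2 rose by 1.31 ± 0.11 log2 units. COL1A1 was at 2.58, 2.12 and 3.28 RPKM in vehicle, with R1881 and with both, and its call was lost in 8 of the 15 alternative settings, among them without vehicle replicate 2 or 3 or any one of the MEL-6 libraries (limma adjusted p up to 0.138). FN1 differed by -0.28 ± 0.085 log2 units, a call lost without replicate 1 of either group (limma adjusted p up to 0.0757). The summed level of that list was 21.9 to 27.7 RPKM in vehicle and 27.0 to 27.5 with both agents. Only 2 of 10 basal and 2 of 11 neuroendocrine markers were tested, 1 of each being higher, and neither the leukocyte marker CD68 nor the endothelial marker VWF was called. Their part in the results above was not tested. The luminal list summed to 1791 to 1845 RPKM in vehicle and 2132 to 2195 with both, with KLK3 as its largest change.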

How the data were processed

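Polyadenylated RNA of LNCaP cells was sequenced from 3 biological replicates of each of 3 groups, with groups and replicate numbers taken from the sample titles. The deposited values are RPKM per gene and library made by the authors, with CASAVA 1.8 and GRCh37 (hg19) named in the submitters' processing notes. Filters, annotation, read totals and use of strand are not given in the sources used here. The authors' own comparison columns were not used. Of 25142 entries, 5883 were at 0 in every library and 17 had gene symbols turned into dates. These last are not named. Genes reaching 0.5 RPKM in 3 or more of the 9 libraries were tested on log2(RPKM + 0.5) with limma 3.58.1 (R 4.3.3), in a group-means model with an intensity trend over all 9 libraries, with 6 residual and 4.31 prior degrees of freedom. Each difference uses its own 2 groups. A count model was not used, since RPKM are not counts. RPKM sums ran from 350381 to 365815 per library. Replicates of a group correlated at 0.985 to 0.994 across genes, which are not independent replicates. A p-value here measures the spread between these cultures.

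Named genes are the 12 largest called changes in each direction with a mean of 5 RPKM or more in the higher group and no overlap, up to 6 called members per list with the largest change, the 10 panel genes highest with R1881 and a short fixed set. Other list members, including those not called, were named after their values were seen. The members and the 29 lists (626 genes, 551 tested) were chosen with earlier results of these data known. Some genes are in several lists, for example DNAJB9 in the folding list and the longer androgen list, so list counts are not independent of each other. Nearest the filter, FGF21 (third-highest value 0.517 RPKM) was inside and EGR1 (0.464 RPKM) outside. Older symbols were matched by RefSeq synonyms. Promoters are from RefSeq. The motif share of all promoters is per promoter, whereas a list gene was counted if any of its promoters held the motif. Genes with several promoters thus had more opportunity to match, and these shares are not on the same basis. A few list genes are counted but not reported here by name. The alternatives were pseudocounts of 0.1 and 1, other filters and scalings, no trend, a replicate block and a fit on the 6 libraries alone. The remaining settings left out each vehicle or R1881 with MEL-6 library in turn. No library with R1881 alone was left out by itself.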

Additional observations from a re-analysis of the deposited data

How the results depend on the processing

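Across 15 alternative settings none of the followed genes that were called changed direction. The number of genes higher than vehicle ran from 1839, in a fit on the 6 libraries alone, to 2769 with upper-quartile scaling, and the number lower from 2188 to 2769. With a pseudocount of 0.1 in place of 0.5 RPKM, 283 genes were higher at least 2-fold, against 178. Leaving out 1 vehicle or R1881 with MEL-6 library at a time gave 1860 to 2244 genes higher and 2202 to 2626 lower. Of 190 called genes among the 221 followed, 170 were called in every setting and 20 lost their call in some, among them EAF2, FOLH1, HOXB13, SPDEF, FN1 and COL1A1. The lists gave 870 counts over each list, direction and alternative setting. Of these, 795 stayed close to the main count and 75 moved away from it. CALR, the single fall among folding genes, was not called in most settings. Same-numbered replicates of the 2 groups did not deviate together (correlations across genes -0.197, 0.0168 and -0.147). Differently numbered replicates had correlations from -0.0784 to 0.187. No shared effect of the replicate number was seen, but these values cannot show whether the cultures were handled in pairs. A fit with the replicate number as a block gave 2028 genes higher and 2475 lower. Without stated read totals, no value near the filter of 0.5 RPKM can be given a counting error.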
